A study of Homo sapiens with 6 samples.

Results

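Aminoacyl-tRNA synthetases, the enzymes that load each tRNA with its amino acid, were followed in LNCaP cells through a time course of the androgen dihydrotestosterone (DHT). LNCaP is an androgen-responsive human prostate cancer cell line. All cells had been kept in hormone-depleted medium before the hormone was added. One RNA sequencing library came from cells treated with 10 nM DHT for each of 3, 6, 12, 24 and 48 h, and 1 library came from untreated cells at 0 h. Members were chosen by symbol, as genes named for an amino acid's synthetase, and 34 of the 17990 genes of the table met that rule. Of these, 19 were cytosolic enzymes (AARS, CARS, DARS, EPRS, FARSA, FARSB, GARS, HARS, IARS, KARS, LARS, MARS, NARS, QARS, RARS, SARS, TARS, WARS and YARS) and 15 were mitochondrial enzymes, whose symbols end in 2. All 34 had a mean count of at least 20 over the libraries, the lowest mean being 137 counts. The valyl enzymes and EARS2 were not analysed here. There was no replicate library at any time, so no test between times was possible, and all intervals given here are 95% intervals that cover counting error only.

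Each amino acid is joined to its tRNA by its own enzyme, usually with separate nuclear genes for the cytosol and for mitochondria, while GARS and KARS serve both compartments. In the cytosol, EPRS, IARS, LARS, MARS, QARS, RARS, KARS and DARS are held in the multisynthetase complex by scaffold proteins. When amino acids are short or the endoplasmic reticulum is stressed, the transcription factor ATF4 activates many of the cytosolic synthetase genes together with genes for making and importing amino acids, by binding composite sites known as amino acid response elements.

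Promoter sequence was searched for the core of that element, TGATGNAA in either orientation, because many of the members are known ATF4 targets. The windows were the 250 bases before each start that RefSeq lists on GRCh38.p14. The core occurred in 4 of 37 windows of the 29 members with an entry (10.8%) and in 3.14% of the 35116 windows of all genes. The 4 matches are printed with their surroundings on the strand of the gene, with the core in capitals, at 187 to 180 bases before the start of AARS, 33 to 26 before a start of GARS, 13 to 6 before a start of IARS and 197 to 190 before the start of YARS2. The core lies on the opposite strand in AARS, GARS and IARS. These are matches of letters and not measured binding sites.
AARS, chr16:70289675-70289704, minus strand: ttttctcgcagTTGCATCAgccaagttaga
GARS, chr7:30594834-30594863, plus strand: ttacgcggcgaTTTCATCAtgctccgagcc
IARS, chr9:92293692-92293721, minus strand: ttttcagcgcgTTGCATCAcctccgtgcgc
YARS2, chr12:32756076-32756105, minus strand: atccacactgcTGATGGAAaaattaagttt
The first 3 belong to cytosolic enzymes and YARS2 is the mitochondrial tyrosyl enzyme. Among the other known ATF4 targets, no window of CARS, EPRS, MARS, NARS, SARS, TARS or WARS held the core, and LARS and YARS had no entry to search. The E-box CACGTG, which is its own reverse complement, occurred in 2 of the 37 member windows (5.41%), those of IARS and MARS2, and in 6.34% of all windows.

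The libraries held 13179917 to 20587956 counts over listed transcripts, with the most in the 24 h library, and levels are given as CPM, the count per 1000000 of those totals. In the 12 h library, values of single genes on chromosome 4 and distal chromosome 15 were not used, and no member lies there. Counts of those genes stayed in the 12 h total behind the CPM. All 8 markers of luminal prostate and LNCaP cells, KLK2, KLK3, TMPRSS2, FOLH1, KRT8, KRT18 and HOXB13 among them, were measured, and their summed level was 8423 to 22043 CPM over the 6 libraries. The summed level was 32.5 to 72.4 CPM for 6 fibroblast markers, of which 2 passed the count minimum, and 13.5 to 18.5 CPM for 5 leukocyte markers, of which 1 passed. It was 0.332 to 0.895 CPM for 3 basal markers, of which 0 passed. A change is the log2 of (CPM + 1) at a DHT time over (CPM + 1) at 0 h, and 2-fold or more was taken as a rule of size. All changes share the 0 h library. They also moved with the GC content of transcripts: across all measured genes outside the unused regions, Pearson's r between change and GC content was 0.23 at 3 h, −0.74 at 6 h, −0.62 at 12 h, −0.51 at 24 h and −0.56 at 48 h. Changes with this trend removed are given beside many of the results, and the part that GC content played was not tested.

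Transcripts of the cytosolic enzymes made up more of the RNA at 24 h than at any other time. Their summed level was 4296 CPM at 0 h, 4403 at 3 h, 4363 at 6 h, 4268 at 12 h, 5944 at 24 h and 4544 at 48 h. The sum at 24 h was 1.38 times that at 0 h (1.37 to 1.40), while the sums at the other DHT times were 0.994 to 1.06 times that at 0 h. AARS, the alanyl enzyme, was the largest single contributor, and without it the sum was 4852 CPM at 24 h, against 3452 CPM at 0 h. The mitochondrial enzymes differed from this. Their summed level was 822 CPM at 0 h, 829 at 3 h, 835 at 6 h, 777 at 12 h, 638 at 24 h and 668 at 48 h, and the sum at 24 h was 0.776 times that at 0 h (0.757 to 0.796). All 34 genes together took 0.658% of the counts at 24 h and 0.505 to 0.523% in the other libraries. The 24 h library was also the most deeply sequenced, and whether depth played a part was not tested.

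**Figure D1:**
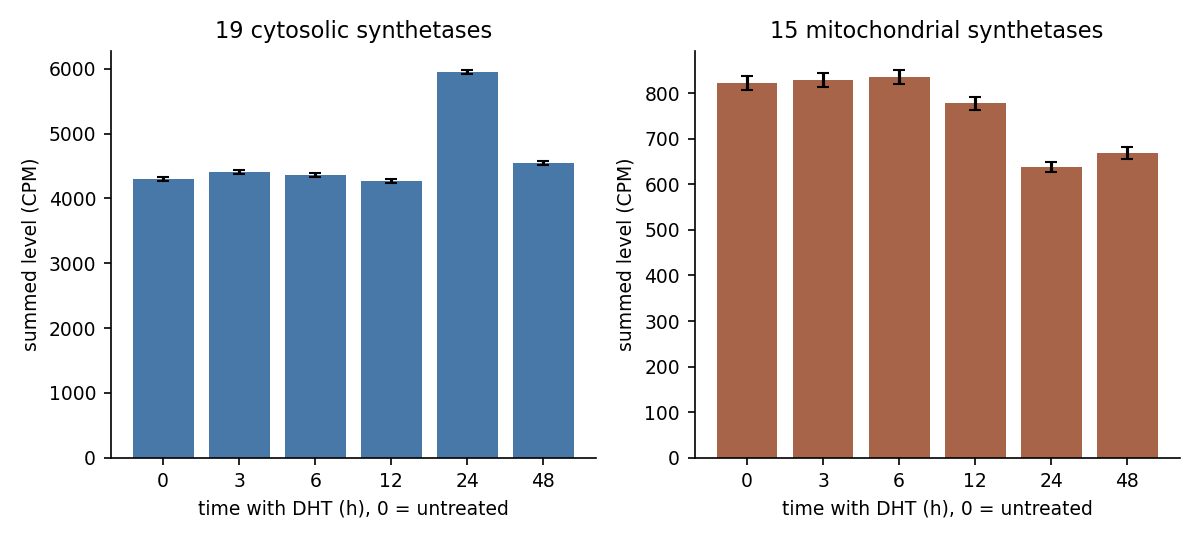
Summed level in CPM of the 19 cytosolic and of the 15 mitochondrial synthetases in each of the 6 libraries, with bars from 0 and 95% counting intervals. The cytosolic sum reached 5944 CPM at 24 h, against 4296 CPM untreated, and the mitochondrial sum was lowest at 24 h, at 638 CPM.

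Levels per length differed widely among the enzymes. In untreated cells, AARS had 243 CPM per kb of transcript, SARS (seryl) had 171, FARSA (a subunit of the phenylalanyl enzyme) had 147, QARS (glutaminyl) had 140 and KARS (lysyl) had 115. FARSB, the other subunit of the phenylalanyl enzyme, was the lowest cytosolic member, at 18.4 CPM per kb. The median was 55.5 CPM per kb for cytosolic members and 16.7 for mitochondrial members at 0 h. IARS2 (isoleucyl) was the highest mitochondrial member, at 46.6 CPM per kb, and RARS2 (arginyl) was the lowest, at 3.92.

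At 24 h, 4 of the 19 cytosolic enzymes were at least 2-fold higher than at 0 h and none was 2-fold lower, where 10.5% of the 11916 measured genes were higher and 10.8% lower by that rule. The 4 were TARS (threonyl), GARS (glycyl), NARS (asparaginyl) and WARS (tryptophanyl). The count was 0 higher and 0 lower at 3 h and at 6 h, against 0.747 and 0.864% of all genes at 3 h and 15.3 and 3.01% at 6 h. It was 1 higher, TARS, and 0 lower at 12 h, where 11.7 and 3.82% of 10989 genes passed, although TARS had a change of 0.71 at 12 h with the GC trend removed, and 2 higher, TARS and NARS, and 0 lower at 48 h, where 15 and 7.33% passed. The share of cytosolic enzymes past 2-fold was therefore near or below that of all genes at 12 and 48 h. The median change of the cytosolic enzymes was 0.05 at 3 h, 0.17 at 6 h, 0.08 at 12 h, 0.51 at 24 h and 0.18 at 48 h, and the median over all measured genes was −0.08, 0.08, 0.08, −0.09 and −0.06 at the same times. By a 1.5-fold rule, 8 cytosolic enzymes were higher and 1, QARS, was lower at 24 h, where 21.6 and 24.2% of all genes passed. By the same rule 0 were higher and 1, DARS, was lower at 3 h, where 2.52 and 8.13% passed, and 2 were higher and 2, QARS and FARSA, were lower at 48 h, where 25.4 and 22% passed.

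TARS showed the largest change of any member. Its level was 181 CPM at 0 h, 160 at 3 h, 315 at 6 h, 401 at 12 h, 547 at 24 h and 418 at 48 h. After 3 h it was above the untreated library at every time, and at 24 h it was 3.01 times the level at 0 h (2.88 to 3.15), a log2 change of 1.59. NARS followed a similar course, with 140 CPM at 0 h, 114 at 3 h, 243 at 6 h, 224 at 12 h, 292 at 24 h and 296 at 48 h. It was 2.08 times the untreated level at 24 h (1.98 to 2.2) and 2.11 times at 48 h (2.0 to 2.23), so that the last 2 libraries did not differ beyond counting error. With the GC trend removed the changes at 6 h were 0.28 for TARS and 0.34 for NARS, against 0.79 for each as counted.

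GARS and WARS were high mainly in the 24 h library. GARS had 154 CPM at 0 h, 173 at 3 h, 197 at 6 h, 155 at 12 h, 331 at 24 h and 217 at 48 h, and its ratio at 24 h to 0 h was 2.15 (2.04 to 2.26). WARS had 129 CPM at 0 h, 156 at 3 h, 146 at 6 h, 179 at 12 h, 264 at 24 h and 157 at 48 h, with a ratio of 2.04 (1.93 to 2.16) at 24 h. Interferons also induce WARS in many human cells. MARS (methionyl), CARS (cysteinyl) and YARS (tyrosyl) were also highest at 24 h, below 2-fold. MARS had 253, 298, 259, 232, 465 and 348 CPM in the order of time, CARS had 93.5, 117, 92.9, 67.5, 172 and 106 CPM, and YARS had 225, 273, 203, 174, 367 and 260 CPM. Each of these 3 was lowest at 12 h and highest at 24 h, and the ratio at 24 h to 0 h was 1.84 for MARS (1.77 to 1.91), 1.84 for CARS (1.72 to 1.96) and 1.63 for YARS (1.56 to 1.70).

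**Figure D2:**
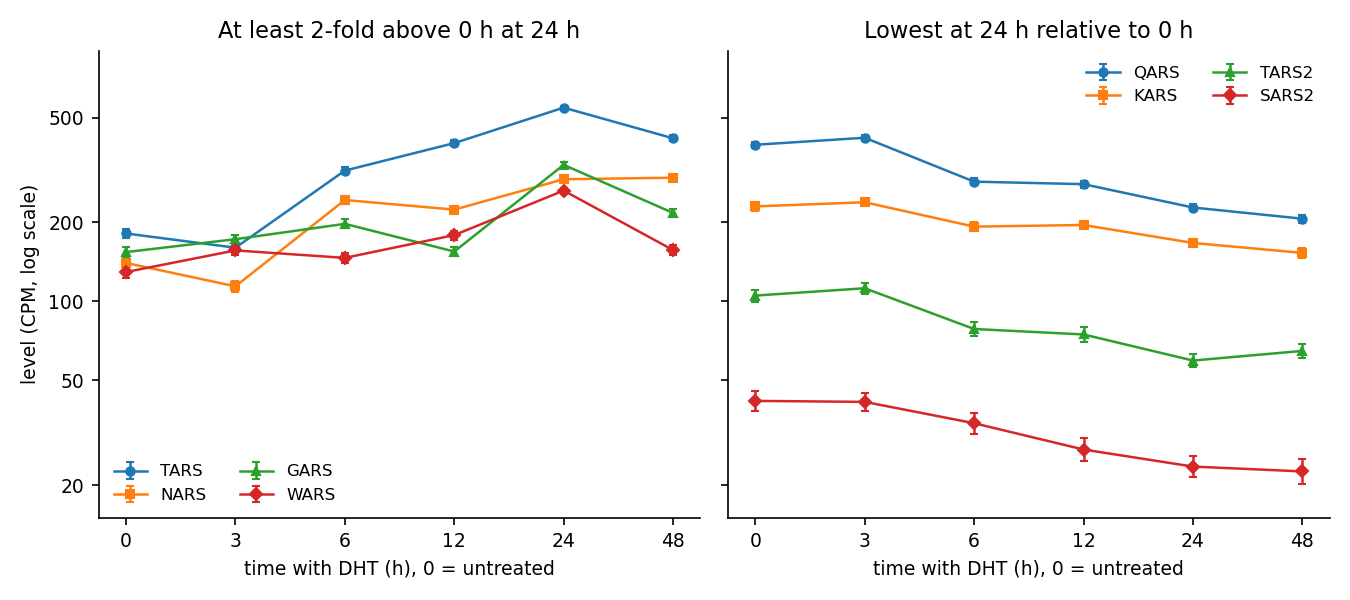
Level in CPM on a log scale against time with DHT for the 4 enzymes at least 2-fold above 0 h at 24 h (left) and for the 2 cytosolic and 2 mitochondrial enzymes lowest at 24 h relative to 0 h (right), with 95% counting intervals. TARS stood at 547 CPM at 24 h, against 181 CPM at 0 h, while QARS stood at 228 CPM at 24 h, against 395 CPM at 0 h.

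The increases at 24 h were mostly among the 12 cytosolic enzymes whose genes are known ATF4 targets (AARS, CARS, EPRS, GARS, IARS, LARS, MARS, NARS, SARS, TARS, WARS and YARS). This list was drawn up with earlier results of these data known, so its counts are a description. Of the 12, 11 were above 0 h at 24 h, where 45.7% of all measured genes were. Of these, 8 were higher by at least 1.5-fold and 4 by at least 2-fold, where 21.6 and 10.5% of all genes were, and the median change of the 12 was 0.79. The median was 0.05 at 3 h, 0.17 at 6 h, 0.05 at 12 h and 0.23 at 48 h. The exception at 24 h was LARS (leucyl), with 188 CPM at 24 h, against 194 CPM at 0 h. The other 7 cytosolic enzymes had 0 past 2-fold and a median change of 0.02 at 24 h. With the GC trend removed the medians at 24 h were 0.98 for the known targets and 0.02 for the other 7, and MARS, CARS and YARS passed 2-fold as well, with changes of 1.17, 1.14 and 1.09. TARS, WARS and GARS stayed past 2-fold in that calculation, at 1.34, 1.24 and 1.18, and NARS was at 0.86. By that measure 7.08% of 11138 genes were 2-fold higher and 6.57% lower.

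AARS, SARS, IARS (isoleucyl) and EPRS, which joins glutamate and proline to their tRNAs, were the remaining known targets. AARS had 844, 957, 705, 608, 1092 and 801 CPM in the order of time and was 1.29 times its untreated level at 24 h (1.26 to 1.32). SARS had 316, 302, 256, 230, 403 and 289 CPM. Both were lowest at 12 h and highest at 24 h. IARS had 258, 228, 290, 274, 369 and 280 CPM, with its highest value at 24 h and a ratio to 0 h of 1.43 (1.37 to 1.49). EPRS had 276, 211, 403, 339, 421 and 328 CPM, and its ratio at 24 h was 1.52 (1.47 to 1.58). Once the GC trend was removed, the changes at 24 h were 0.66 for AARS, 0.60 for SARS, 0.27 for IARS and 0.33 for EPRS, so that EPRS was no longer 1.5-fold higher.

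Many cytosolic enzymes had their highest level at 24 h. The highest of the 6 libraries was the 24 h one for 10 of the 19 cytosolic enzymes, all 10 among the known ATF4 targets, where 7.38% of the 10989 genes usable at 12 h peaked then. Among mitochondrial enzymes the number was 0 of 15. The 12 h library was the lowest for AARS, CARS, MARS, SARS and YARS, where 2.75% of all genes were lowest at 12 h. The step between those libraries was chosen for a count after the values were seen: CARS, GARS and YARS were at least 2-fold higher at 24 h than at 12 h, where 0.373% of all genes were. The ratio of 24 h to 12 h was 2.54 for CARS (2.36 to 2.74), 2.14 for GARS (2.04 to 2.25) and 2.11 for YARS (2.02 to 2.21). MARS, at 2.0 (1.92 to 2.09), was just short on the (CPM + 1) scale. By 1.5-fold AARS and SARS were also higher at 24 h than at 12 h, making 6 of 19, where 1.58% of all genes passed. The median log2 change between the libraries was 0.68 for the known targets, −0.20 for the other 7 cytosolic enzymes, −0.21 for the mitochondrial enzymes and −0.17 for all genes.

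After 24 h the cytosolic levels were mostly lower again. At 48 h, 17 of the 19 were below their own 24 h level, the exceptions being NARS and DARS (aspartyl), where 40.6% of all genes were lower. The ratio of 48 h to 24 h was 0.594 for WARS, 0.618 for CARS, 0.631 for FARSB, 0.656 for GARS and 0.707 for YARS. The median log2 change between the libraries was −0.40 for cytosolic enzymes, −0.10 for mitochondrial enzymes and 0.07 for all genes. TARS kept a level of 418 CPM at 48 h, 2.30 times that at 0 h (2.20 to 2.42). Genes of low GC content were also high at 48 h, and with the GC trend removed no cytosolic enzyme was past 2-fold at 48 h, where 7.15% of genes were higher and 4.82% lower.

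**Figure D3:**
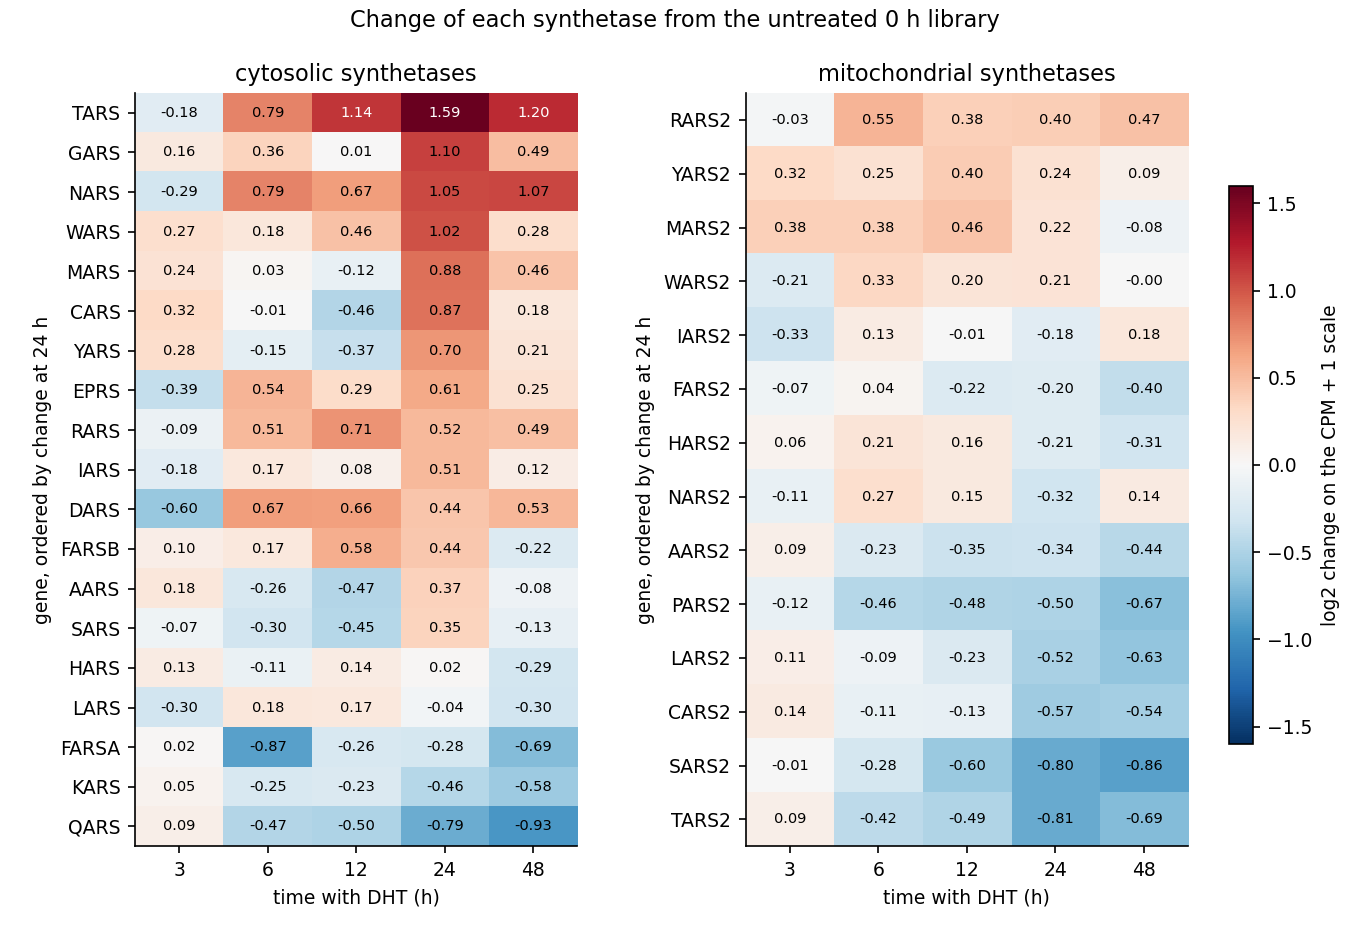
Log2 change of the synthetases reported by name at 3, 6, 12, 24 and 48 h with DHT relative to untreated cells, with cytosolic and mitochondrial enzymes apart. TARS reached 1.59 at 24 h, and the lowest mitochondrial value at 24 h was −0.81, in TARS2.

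QARS and KARS were the cytosolic enzymes with the largest decreases at 24 h as counted. With the GC trend removed LARS was the lowest cytosolic enzyme, at −0.47 at 24 h and −0.89 at 48 h. In that calculation KARS was at −0.44 at 24 h and FARSB at −0.79 at 48 h. QARS had 395 CPM at 0 h, 420 at 3 h, 286 at 6 h, 280 at 12 h, 228 at 24 h and 206 at 48 h. Its level was 0.577 times the untreated one at 24 h (0.554 to 0.6) and 0.523 times at 48 h (0.5 to 0.547), and with the GC trend removed its log2 changes were −0.43 and −0.55. KARS had 230, 239, 192.6, 195.4, 167 and 153 CPM in the order of time, with a ratio of 0.726 (0.691 to 0.763) at 24 h. FARSA had 267, 272, 146, 224, 220 and 165 CPM, with its lowest level at 6 h, while its partner subunit FARSB had 62.1, 66.9, 69.8, 93.6, 84.5 and 53.3 CPM. The FARSA transcript has 61.4% GC and that of FARSB 41.6% GC. At 24 h their changes were −0.28 and 0.44 as counted and 0.27 and 0.02 with the GC trend removed, so that the direction turned for FARSA. HARS (histidyl) stayed between 113 and 152 CPM, and its change was 0.02 at 24 h and −0.29 at 48 h.

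Enzymes of the multisynthetase complex did not all move the same way. Of the 8, none was past 2-fold at 24 h, MARS and EPRS were at least 1.5-fold higher and QARS was at least 1.5-fold lower, where 21.6 and 24.2% of all genes were, with a median change of 0.48. With the GC trend removed, 1 of the 8, MARS, was at least 1.5-fold higher and 0 were lower, where 16.5 and 16% of genes were. RARS had 66.3, 62.1, 95.1, 109, 95.2 and 93.3 CPM in the order of time, and DARS had 72.3, 47.3, 115, 115, 98.6 and 105 CPM. Their changes at 24 h were 0.52 and 0.44 as counted and 0.08 and −0.01 with the GC trend removed. Outside the complex, 4 of 11 enzymes were past 2-fold, all of them higher, and the median was 0.70. Of all measured genes, 10.5% were 2-fold higher and 10.8% lower at 24 h. With 8 genes inside the complex, a count of 0 is not set apart from those shares. With the GC trend removed the medians at 24 h were 0.03 inside and 0.86 outside the complex. The 3 scaffold proteins differed as well: EEF1E1 (also called AIMP3) had 8.04, 6.87, 29.98, 27.3, 23.3 and 37.0 CPM, whereas JTV1 (AIMP2) had 127, 148, 102, 95.2, 80.8 and 64.5 CPM. SCYE1 (AIMP1) lies on chromosome 4 and had 34.0 CPM at 24 h, against 17.0 CPM at 0 h. EEF1E1 had a change of 0.63 at 24 h, not past 2-fold, with the GC trend removed.

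As counted, none of the 15 mitochondrial enzymes was 2-fold higher or lower than untreated at any DHT time. Of all genes used at each time, 0.747% were 2-fold higher and 0.864% lower at 3 h, and 15.3 and 3.01% at 6 h. The shares were 11.7 and 3.82% at 12 h, 10.5 and 10.8% at 24 h, and 15 and 7.33% at 48 h. At 24 h 11 of 15 were below 0 h, where 54.3% of all measured genes were, and 3 were lower by at least 1.5-fold, where 24.2% of all genes were. The median change was −0.32. At 48 h 11 were again below 0 h, where 53% of all genes were, and 4 were lower by at least 1.5-fold, where 22% were, with a median of −0.40. The median was 0.06 at 3 h, 0.13 at 6 h and −0.01 at 12 h. The 24 or 48 h library was the lowest for 11 of the 15, where 43.1% of all genes were lowest then, and the 48 h library alone was the lowest for 7, where 20.8% were. With the GC trend removed the median was −0.16 at 24 h and −0.13 at 48 h. In that calculation 1 of the 15 was at least 1.5-fold lower at each time, where 16 and 14.6% of genes were. At 24 h 1 of the 15 was also 2-fold lower in that calculation, where 6.57% of genes were. Across the 15 genes r between GC content and change as counted was −0.55 at 24 h and −0.76 at 48 h.

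TARS2 and SARS2, the mitochondrial threonyl and seryl enzymes, had the lowest changes at 24 h as counted. TARS2 had 105 CPM at 0 h, 112 at 3 h, 78.5 at 6 h, 74.8 at 12 h, 59.5 at 24 h and 64.8 at 48 h, and its ratio at 24 h to 0 h was 0.566 (0.524 to 0.611). SARS2 had 41.8, 41.5, 34.4, 27.3, 23.5 and 22.5 CPM in the order of time, a ratio of 0.562 (0.497 to 0.637) at 24 h. Of the 2215 exon bases of SARS2 in GENCODE v29, 1841 overlap exons of MRPS12 or of a further annotated gene, so its counts may hold reads of those genes. After removal of the GC trend the changes at 24 h were −0.47 for TARS2 and −0.25 for SARS2, so that neither was 1.5-fold lower, and NARS2, at −0.53, lay below both.

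Few mitochondrial enzymes went the other way. RARS2 had 9.71 CPM at 24 h, against 7.13 CPM at 0 h, a change of 0.40, and YARS2 and MARS2 had changes of 0.24 and 0.22. RARS2 was, with the GC trend removed, at 0.00, YARS2 at 0.38 and MARS2 at 0.29. At 48 h the highest after RARS2 were IARS2, with 188 CPM, against 166 CPM at 0 h, and NARS2, with 25.6 CPM, against 23.1 CPM at 0 h. All 3 lay below 0 at 48 h with the GC trend removed, at −0.07 for RARS2, −0.13 for IARS2 and −0.15 for NARS2. The lowest at 48 h were SARS2, TARS2 and PARS2 (prolyl), with changes of −0.86, −0.69 and −0.67, or −0.39, −0.32 and −0.32 with the GC trend removed. AARS2, CARS2, FARS2, HARS2, LARS2 and WARS2 had changes from −0.57 (CARS2) to 0.21 (WARS2) at 24 h as counted, and those of AARS2, FARS2 and WARS2 turned to 0.16, 0.03 and −0.14 after removal of the GC trend. HARS2 had 65.3, 68.2, 75.7, 73.1, 56.3 and 52.4 CPM in the order of time. HARS and HARS2 are close copies on opposite strands that share 402 exon bases, and how reads that fit both were counted is not given in the sources used here.

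Set against its mitochondrial partner for the same amino acid, the cytosolic enzyme had the higher change in 15 of 16 pairs at 24 h, where FARSA and FARSB were each paired with FARS2. The number was 7 of 16 at 3 h, 8 at 6 h, 10 at 12 h and 14 at 48 h. With the GC trend removed it was 7 at 3 h, 6 at 6 h, 10 at 12 h and 11 at 48 h. The median difference, cytosolic minus mitochondrial change, was 0.70 at 24 h, both as measured and with the GC trend removed, where 14 of 16 pairs had the higher cytosolic change and LARS and FARSB were the ones below their partners. The widest pair was TARS and TARS2, with changes of 1.59 and −0.81 and a difference of 2.40. The differences were 1.44 for the cysteinyl pair, 1.37 for the asparaginyl pair and 1.15 for the seryl pair. As counted, FARSA was the one below its partner, by a difference of −0.08. GARS and KARS, which each serve both compartments and have no partner, went opposite ways, with changes of 1.1 and −0.46.

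**Figure D4:**
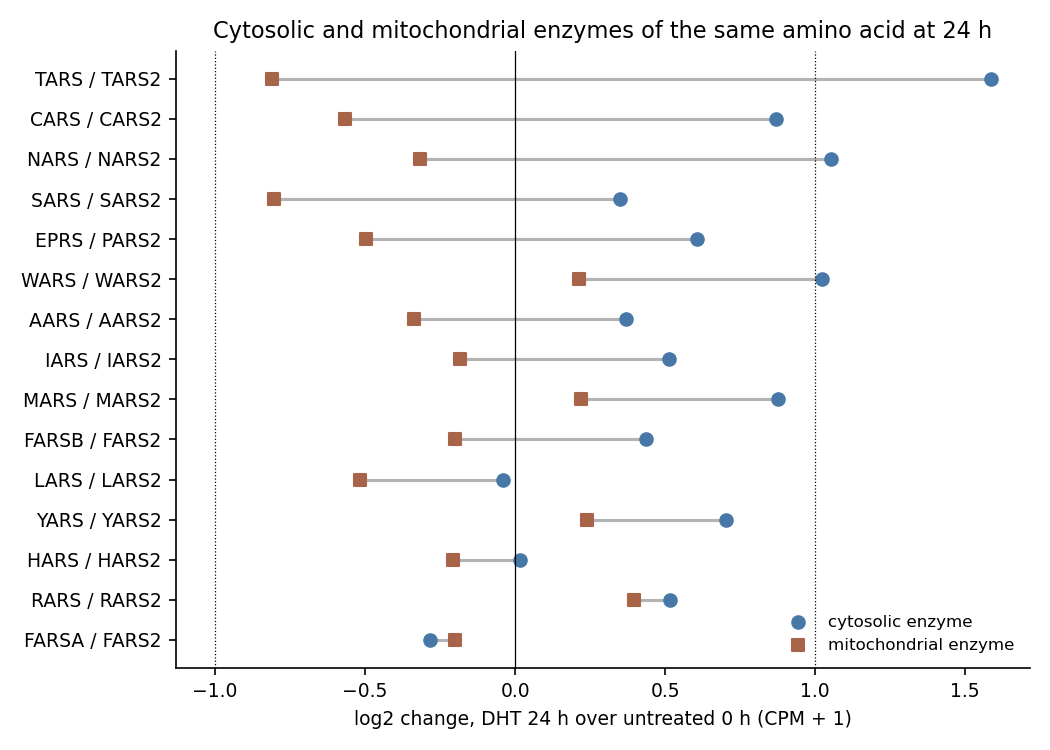
Log2 change at 24 h relative to 0 h of the cytosolic and the mitochondrial enzyme for the same amino acid, 1 line per pair of genes reported by name. The cytosolic change lay above the mitochondrial one in each pair drawn other than FARSA and FARS2, whose difference was −0.08.

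**Figure D5:**
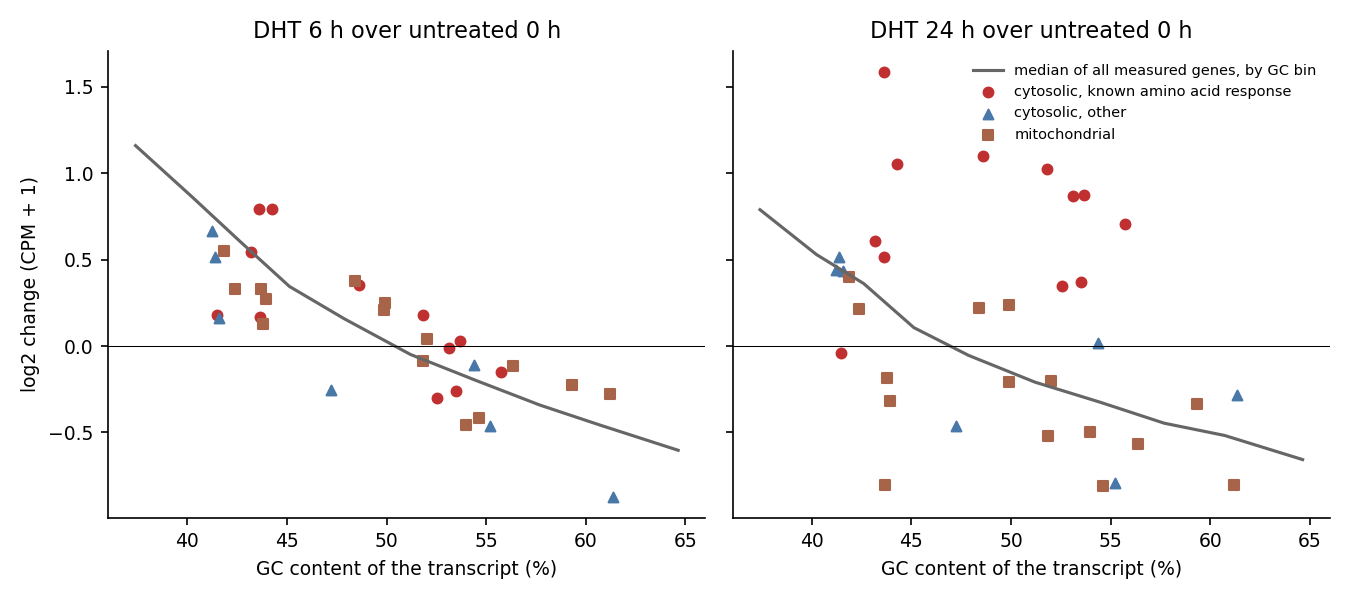
Log2 change at 6 h (left) and 24 h (right) relative to 0 h against transcript GC content in percent for the 34 synthetases, with a line for the median of all measured genes by GC content. At 6 h r was −0.81 for cytosolic and −0.83 for mitochondrial enzymes, and at 24 h it was −0.28 and −0.55, where the known ATF4 targets other than LARS lie above the line.

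Other genes of tRNA charging and of translation elongation gave values for comparison, in lists also drawn up with earlier results known. The median change of 24 measured ATF4 target genes outside the synthetases was 0.47 at 24 h. Of the 24, 5 were at least 2-fold higher and 0 lower, where 10.5 and 10.8% of all genes were. The 5 were SLC7A11 (the cystine importer), VLDLR (a lipoprotein receptor), CHAC1 (which breaks down glutathione), MTHFD2 (a mitochondrial folate enzyme) and ATF3 (a stress-induced transcription factor), with changes of 3.31, 2.05, 1.73, 1.08 and 1.02. ATF4 itself had 265, 284, 227, 218, 418 and 241 CPM in the order of time, and ASNS, asparagine synthetase, had 84.6, 78.7, 93.4, 71.4, 161 and 94.6 CPM. Both were lowest at 12 h and highest at 24 h, as were CARS, MARS, SARS, YARS and AARS. Of the 23 list genes usable at 12 h, 14 were lowest at 12 h, 22 were higher at 24 h than at 12 h and 7 were so by at least 2-fold. Of all 10989 genes usable at 12 h, 2.75% were lowest at 12 h. Between 12 and 24 h, 2854 of the 10989 were higher, and 0.373% were so by at least 2-fold. The median change of the list from 0 h was −0.56 at 12 h (23 genes) and 0.18 at 48 h (24 genes). Not all moved alike as counted: PHGDH, the first enzyme of serine synthesis, had 512 CPM at 24 h, against 737 CPM at 0 h, and DDIT3 had 37.9 CPM at 24 h, against 37.6 CPM at 0 h. With the GC trend removed the change of PHGDH at 24 h was −0.08, against −0.52 as counted, and that of DDIT3 was 0.18. DDIT3 lies beside MARS on the opposite strand and shares 62 exon bases with it.

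The rest of the tRNA and elongation machinery had medians at 24 h from −0.71 to 0.24 as counted. The counts past 2-fold below are to be read beside the shares of all measured genes, 10.5% higher and 10.8% lower at 24 h. With the GC trend removed C1orf19, RPP25, DTD1 and EEF1A2 were not past 2-fold, at 0.56, −0.44, −0.80 and −0.74. Of 18 measured genes of RNA polymerase III transcription, 1 was 2-fold higher and 1 lower, with a median of −0.23: the transcription factor subunit GTF3C6, at 1.52, and the polymerase subunit POLR3GL, at −1.22. Of 19 genes of tRNA maturation and export, C1orf19 (the tRNA splicing endonuclease subunit TSEN15) was 2-fold higher, at 1.05, and THG1L and RPP25 were 2-fold lower, at −1.04 each, with a median of −0.11. RPP25 had 1.41 CPM at 24 h, against 3.95 CPM at 0 h. XPOT, which exports tRNA from the nucleus, had 199 CPM at 24 h, against 115 CPM at 0 h. Its change was 0.79 as counted and 0.30 with the GC trend removed. Of 12 genes of other tRNA charging and proofreading steps, DTD1, a D-aminoacyl-tRNA deacylase, was 2-fold lower, at −1.04, and the median was −0.28. All 5 subunit genes of elongation factor 1, which carries charged tRNA to the ribosome, were below 0 h at 24 h, where 54.3% of all genes were. The median of the 5 was −0.71 as counted and −0.37 with the GC trend removed. Among them EEF1A2 was lowest, with 737 CPM at 24 h, against 2003 CPM at 0 h. None of 10 mitochondrial translation factors was past 2-fold, the median being 0.24 as counted and −0.15 with the GC trend removed. TUFM, the mitochondrial elongation factor that carries charged tRNA, had 266 CPM at 24 h, against 509 CPM at 0 h. Its change was −0.93 as counted and −0.48 with the GC trend removed.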

How the data were processed

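RNA of 6 libraries, 1 per time, was compared. Per the file headers, the deposited table held a count of tags and an RPM value (headed ppm), scaled by the authors to library reads, for each RefSeq transcript. The hg19 build is named in the submitters' processing notes, and the sources used here give no aligner, counting tool or strand use. After removal of 50 repeated lines, 18001 transcripts gave 17990 genes, and the 11916 with a mean count of at least 20 were measured. Counts were scaled to CPM, and changes were taken with a pseudocount of 1 CPM, which understates changes of low genes. Intervals were exact Poisson (levels) and exact conditional binomial (ratios). The GC trend was a lowess curve (span 0.3, statsmodels 0.14.6) over 11138 genes with GENCODE v29 transcripts. At 12 h the curve also covered genes of chromosome 4 and distal chromosome 15. The calculation was tested on simulated data. A count of 0 allows up to 3 counts, 0.146 to 0.228 CPM.

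The members and lists were chosen with earlier results of these data known. Named were members past 2-fold, those with the largest changes at 24 and 48 h, complex members, GARS, KARS, HARS and HARS2, and up to 4 genes of each other list; ATF3, ATF4, ASNS, PHGDH, DDIT3 and the remaining members were named after their values were seen. Alternatives were the deposited RPM denominator, median-of-ratios scaling, GC correction, a pseudocount of 0.1 CPM, no or a higher count minimum (100), the most abundant transcript per symbol and a 1.5-fold rule. A few results, 1 member's values among them, are not reported here, though totals and counts over members include it.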

Additional observations from a re-analysis of the deposited data

How the results depend on the processing

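No paired analysis was possible because each time had 1 library, and no library could be left out for the same reason. The deposited denominator, the 0.1 CPM pseudocount, either count filter, the most abundant transcript and, chosen after seeing the data, scaling without chromosome 4 and distal 15 kept every count against 0 h within 1.5 times and moved no median by more than 0.045, which at 12 h put the cytosolic median at 0.039 and the mitochondrial one at −0.050 under that last scaling. A 1.5-fold rule gave, for cytosolic enzymes, 1 lower at 3 h, 3 higher and 1 lower at 6 h, 4 higher at 12 h (of all genes, 28.5% higher and 13.4% lower at 6 h and 25.9% higher and 13.3% lower at 12 h), 8 higher and 1 lower at 24 h, and 2 lower at 48 h, and for mitochondrial enzymes 1, 3 and 4 lower at 12, 24 and 48 h. It gave 6 cytosolic enzymes higher at 24 h than at 12 h, against 3 by the 2-fold rule. Removing the GC trend put the cytosolic medians at −0.094 at 6 h, −0.090 at 12 h, 0.34 at 24 h and 0.069 at 48 h and the mitochondrial medians at −0.024 at 6 h, −0.19 at 12 h and −0.13 at 48 h. It left 0 cytosolic enzymes 2-fold higher at 12 h and 0 at 48 h, 1 mitochondrial enzyme 2-fold lower at 24 h, and 5 cytosolic enzymes 2-fold higher at 24 h than at 12 h. Median-of-ratios scaling moved the median of all genes at 24 h to 0.06, against −0.09, and gave medians of 0.67 for cytosolic enzymes at 24 h and 0.029 for mitochondrial enzymes at 6 h, and 6 cytosolic enzymes 2-fold higher at 24 h than at 12 h. The cytosolic enzymes highest at 24 h numbered 14 under it and 13 with the GC trend removed, against 10. For all genes the matching shares are given here only under the main scaling. They were 7.38% highest at 24 h and 0.373% at least 2-fold higher at 24 h than at 12 h. The larger counts under the other settings therefore cannot be set against all genes. The cause of the shifts between settings was not tested.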
